A study of Mus musculus with 36 samples.

Results

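The nuclear-encoded subunits of the mitochondrial respiratory chain and ATP synthase were followed in 2 kidney regions, cortex and medulla, of Balb/c mice. Members were the bead-array probes whose gene symbol starts with Nduf, Uqcr, Cox4i, Cox5, Cox6, Cox7, Cox8 or Atp5, together with the Sdh genes, and without Cox6b1 and Cox6b2. Of 25697 probes on the array, 103 probes of 83 genes met the symbol rule, and 96 probes of 78 genes were detected (detection p under 0.05) on at least 3 of the 36 arrays. They fall into 43 probes of complex I, 6 of complex I assembly factors, 6 of complex II, 8 of complex III, 15 of complex IV and 18 of complex V, the ATP synthase. The remaining 7 probes were detected on 0 arrays. They left Ndufs1, Uqcrq, Cox4i2, Cox7b2 and Cox8c without a member probe, and Sdha has no probe of that name among those analysed.

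The mice had been injected with 177Lu-octreotate, a somatostatin analogue carrying a beta-emitting lutetium isotope that the kidney filters and takes up. The injected activities were 0, 1.3, 3.6, 14, 45 and 140 MBq, and messenger RNA was measured 24 h later. Each tissue and activity has 3 arrays, which gives 12 groups and 36 arrays, and the 0 MBq arrays of a tissue are the controls of all its comparisons. The labels give no age or sex. They do not say whether replicate arrays are separate mice, and p-values therefore reflect the spread among arrays alone, which may be technical.

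Mitochondria make ATP by passing electrons from NADH (complex I) and succinate (complex II) through complex III to oxygen at complex IV. The proton gradient built on the way drives complex V. Kidney tubules, above all the proximal tubule and the thick ascending limb, depend on this pathway to pay for ion transport, and most of its subunits are encoded in the nucleus.

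Array quality and tissue identity were examined before the members. Median signals lay between 112 and 225, and control replicate 1 had the lowest in both tissues. Of the marker probes of the thick ascending limb, 11 of 14 were higher in medulla and 0 in cortex, and 4 of 4 of the distal convoluted tubule were higher in cortex. Of 10 proximal tubule probes, 5 were higher in cortex and 3 in medulla. Adrenal cortex markers stood 6.28 above their 36-array mean (log2) on cortex 14 MBq replicate 3 and 5.65 above it on medulla 14 MBq replicate 3. Adipocyte markers stood between 2.52 and 2.97 above it on cortex 1.3 MBq replicate 2, 14 MBq replicate 3 and 45 MBq replicate 3. The shared controls also stood apart: proximal tubule markers were at -1.05 and -1.07 on control replicate 1 of cortex and medulla, and myeloid markers at 2.03 and 2.51.

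The promoters of the 7 genes with a probe called in medulla at 14 MBq, the activity with the most calls among members, are shown first. Other probes of Ndufa5 and Sdhb were not called there, as given below, and no link of a promoter to a difference was tested. Each stretch holds the 200 bases before the annotated start of transcription, in RefSeq's GRCm38.p6 build, 5′ to 3′ on the gene's strand. For Ndufa5, which has 2 annotated starts, the one farther 5′ was taken. The Cox7a2 stretch lies inside the annotated span of its gene (79755241 to 79771422), so the bases before the 5′ end of that span are not shown. Capitals mark a match to a core motif of NRF1, a regulator of respiratory chain genes (GCGCA, any base, then GCGC, on either strand), or of ETS factors such as GABP (CCGGAAG on either strand). The motifs share no matched bases in these stretches.
Ndufa5, chr6:24527691-24527890, minus strand: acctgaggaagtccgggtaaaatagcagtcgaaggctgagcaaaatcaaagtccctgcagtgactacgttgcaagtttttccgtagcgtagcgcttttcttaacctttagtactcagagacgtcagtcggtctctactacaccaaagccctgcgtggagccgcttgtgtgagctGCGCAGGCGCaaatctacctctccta
Ndufb2, chr6:39592365-39592564, plus strand: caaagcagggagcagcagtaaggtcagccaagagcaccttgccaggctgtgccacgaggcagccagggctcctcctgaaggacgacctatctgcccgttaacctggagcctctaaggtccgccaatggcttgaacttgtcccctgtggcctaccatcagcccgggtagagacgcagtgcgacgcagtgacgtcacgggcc
Sdhb, chr4:140961071-140961270, plus strand: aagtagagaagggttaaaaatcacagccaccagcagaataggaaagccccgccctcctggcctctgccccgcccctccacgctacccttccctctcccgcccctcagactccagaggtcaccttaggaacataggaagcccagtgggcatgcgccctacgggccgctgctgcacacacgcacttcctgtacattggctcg
Cox7a2, chr9:79759854-79760053, minus strand: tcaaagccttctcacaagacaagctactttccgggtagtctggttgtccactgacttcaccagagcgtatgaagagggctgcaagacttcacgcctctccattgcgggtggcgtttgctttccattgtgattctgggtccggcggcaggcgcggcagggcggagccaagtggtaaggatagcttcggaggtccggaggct
Cox7b, chrX:106015500-106015699, plus strand: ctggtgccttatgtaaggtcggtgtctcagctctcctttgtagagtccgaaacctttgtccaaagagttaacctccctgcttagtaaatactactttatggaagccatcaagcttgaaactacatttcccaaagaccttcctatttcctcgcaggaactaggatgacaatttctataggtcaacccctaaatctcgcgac
Atp5e, chr2:174464102-174464301, minus strand: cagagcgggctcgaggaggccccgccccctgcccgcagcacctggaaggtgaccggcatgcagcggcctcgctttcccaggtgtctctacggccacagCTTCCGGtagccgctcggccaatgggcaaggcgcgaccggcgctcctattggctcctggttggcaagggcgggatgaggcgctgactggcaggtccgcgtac
Atp5k, chr5:108434400-108434599, minus strand: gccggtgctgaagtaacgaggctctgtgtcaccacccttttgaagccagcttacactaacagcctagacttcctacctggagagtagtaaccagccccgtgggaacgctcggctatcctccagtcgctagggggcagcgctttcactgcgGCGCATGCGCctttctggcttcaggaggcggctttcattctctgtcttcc
Of the 78 member genes, 67 had a RefSeq promoter window of 300 bases (250 before the start and 50 after it), in 72 windows. The NRF1 letters occurred in 17 of these 72 windows (23.6%), and in 4.6% of the 32851 windows of all genes. The ETS letters occurred in 16 of them (22.2%), against 8.86% of all windows. In the stretches above, Atp5k and Ndufa5 hold the NRF1 letters and Atp5e the ETS letters, while those of Sdhb and a second match of Atp5k lie within the 50 bases after the start. Cox7a2, Cox7b and Ndufb2 hold neither. The matches are letters in a window and were not tied to binding.

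Member probes gave strong signals. The mean log2 signal of a member over the 36 arrays had a median of 12.70, and that of all 15420 probes tested 7.72, and 89 of the 96 members were detected on every array. Signals of different probes do not rank the amounts of their transcripts, so the comparisons that follow are made within a probe. The reference members by complex were Ndufa13, an accessory subunit of complex I (mean log2 signal 14.31), the assembly factor Ndufaf4 (11.01), the iron-sulfur subunit Sdhb (12.77), Uqcr10 of complex III (14.70), the common subunit 4 isoform Cox4i1 (14.43) and the catalytic beta subunit Atp5b (15.02). Atp5b kept to 14.82 to 15.16 in cortex and 14.86 to 15.11 in medulla. Its mean was near the highest of all probes tested (15.03), and the part of this upper end in its narrow range was not tested. The median within-group SD was 0.16 for members and 0.29 for all probes tested. These probes were not matched for signal (medians of 12.70 and 7.72), and the part of signal level in the difference was not tested. A within-group SD over 0.5 was found for 10.4% of members and 9.66% of all probes. In bulk tissue a change in the share of a cell type and a change in RNA per cell cannot be told apart.

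Over the 36 arrays the levels of complex III spanned the narrowest range and those of complex II the widest. The level of a complex on an array is the mean, over its probes, of the log2 signal minus that probe's mean over the 36 arrays. Complex I stood at -0.19, -0.12 and 0.05 on the cortex control arrays and at 0.03, 0.16 and 0.24 at 14 MBq, so a single array of the treated group lay within the control range. In medulla it stood at -0.22, -0.10 and 0.04 in the controls and at 0.11, 0.13 and 0.15 at 14 MBq, without overlap. Of its 43 probes, 7 belong to the co-varying set described below, which weighs on this mean. The median difference over the 43 probes in that comparison was 0.11. The level of complex III, the cytochrome bc1 complex, stayed between -0.17 and 0.23 on all arrays. This mean over 8 probes includes Uqcrb, which ran from 11.08 to 13.92 with a within-group SD of 0.77.

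Complex II is succinate dehydrogenase. In cortex its level was -0.39, -0.23 and 0.10 at 0 MBq, -0.46, -0.45 and 0.63 at 3.6 MBq and -0.04, 0.46 and 0.62 at 14 MBq. The 3.6 MBq arrays thus lay on both sides of the controls. In medulla it was -0.50, -0.33 and 0.05 at 0 MBq, 0.34, 0.37 and 0.37 at 14 MBq and -0.20, -0.16 and -0.13 at 140 MBq. Of its 6 probes, 2 belong to the co-varying set described below. Complex V stood at -0.21, -0.13 and 0.06 on the medulla controls and at 0.14, 0.18 and 0.20 at 14 MBq. Of its 18 probes, 2 belong to the same set, and the median difference over the 18 in that comparison was 0.07. No p is given for levels of a complex, and values are in ascending order within a group. Complex IV stood lowest on cortex control replicate 2 (-0.45) and highest on cortex 1.3 MBq replicate 2 (0.38).

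**Figure D1:**
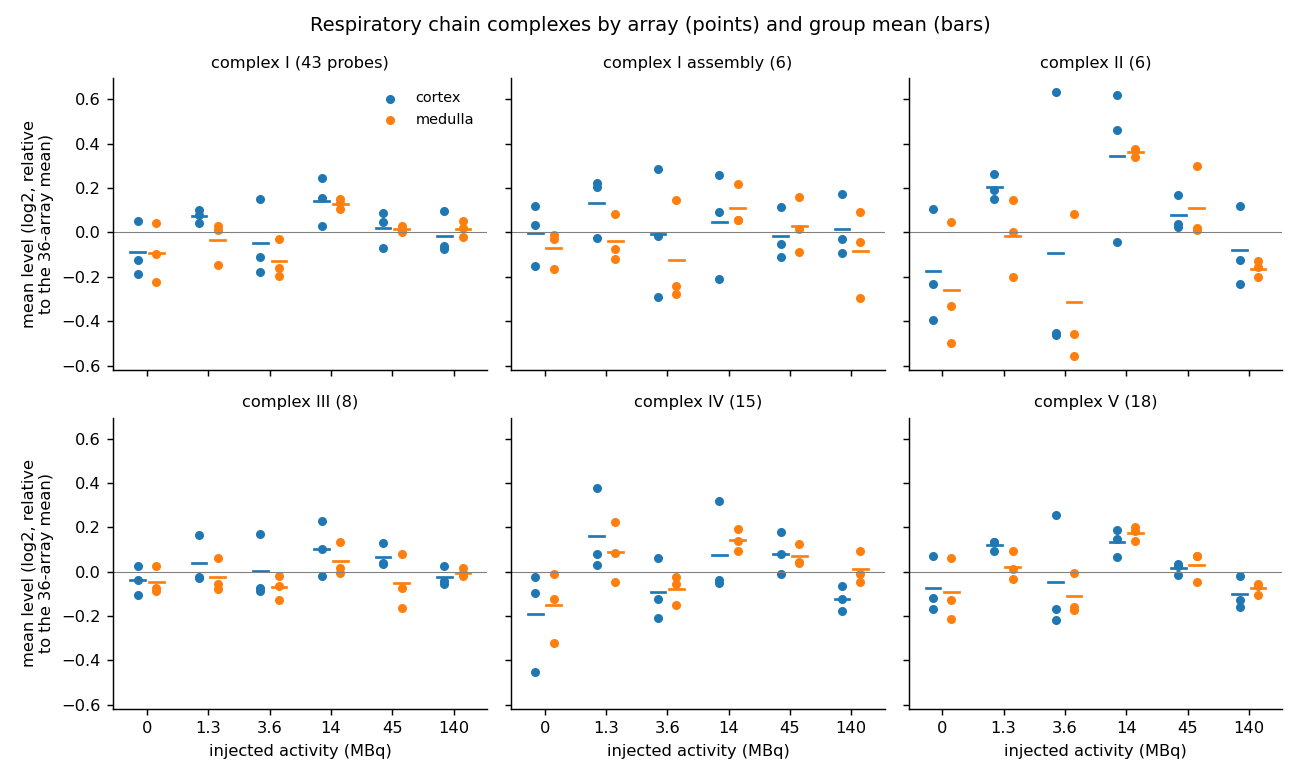
Level of each complex on every array: mean over its probes of the log2 signal minus the probe's 36-array mean (vertical axis), against injected activity in MBq, cortex in blue and medulla in orange. Points are arrays and bars are means of 3 arrays. Complex II spreads widest, from -0.46 to 0.63 within the 3 cortex arrays at 3.6 MBq, and complex III least.

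The comparisons with 0 MBq ask whether the activity changed single members. In cortex 0 of 96 member probes were called by limma (adjusted p under 0.05) at any activity. The share of all probes called was 0.22% at 1.3 MBq, 0.363% at 3.6 MBq, 1.19% at 14 MBq, 0.707% at 45 MBq and 0.739% at 140 MBq. At an unadjusted p under 0.05 the members numbered 13, 6, 5, 6 and 7 at these activities. Those are 13.5, 6.25, 5.21, 6.25 and 7.29% of members, where all probes gave 11.5, 12.6, 14.3, 12 and 10.7%.

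The median difference of the members was above that of all probes in each cortex comparison, by small amounts. It was 0.13, 0.09, 0.16, 0.12 and 0.07 (log2) from 1.3 to 140 MBq, where the median of all probes was at most 0.03. The 5 comparisons share the same 3 controls, so they do not count as 5 separate observations. On the cortex control arrays the mean level of the 96 members was -0.12, -0.22 and 0.05, and leaving out single arrays moved the member medians. They ran from 0.08 to 0.21 at 1.3 MBq, 0.04 to 0.14 at 3.6 MBq, 0.07 to 0.23 at 14 MBq, 0.07 to 0.19 at 45 MBq and 0.01 to 0.12 at 140 MBq.

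At 140 MBq in cortex the smallest p-values among members belonged to Ndufb6 and Cox6a1. Ndufb6, an accessory subunit of complex I, read 12.82, 13.37 and 13.37 on the control arrays and 13.79, 13.71 and 13.66 at 140 MBq, a difference of 0.53 ± 0.16 (adjusted p = 0.184). Cox6a1, the common isoform of subunit 6A, read 13.32, 13.21 and 13.51 in the controls and 13.66, 13.90 and 13.99 at 140 MBq (0.50 ± 0.15, adjusted p = 0.196). In both genes the 140 MBq arrays lay above the controls, and neither passed the test. A second Cox6a1 probe read 13.94, 13.51 and 13.95 in the controls and 13.87, 14.35 and 14.20 at 140 MBq, with overlap. Ndufb3, another accessory subunit, read 11.68, 12.06 and 11.99 in the controls and 12.11, 12.31 and 12.52 at 3.6 MBq (0.40 ± 0.17, adjusted p = 0.332).

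Cortex at 14 MBq was led by members of low signal. Uqcrfs1, the Rieske iron-sulfur protein of complex III, was not well above background in the controls and was detected on 2 of 3 arrays at 14 MBq, at least 1.15-fold higher (adjusted p = 0.151). The Sdhb probe with a mean log2 signal of 6.87 read 6.27, 6.02 and 6.72 in the controls and 7.16, 8.42 and 8.16 at 14 MBq (1.58 ± 0.57, adjusted p = 0.201). Neither was called.

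**Figure D2:**
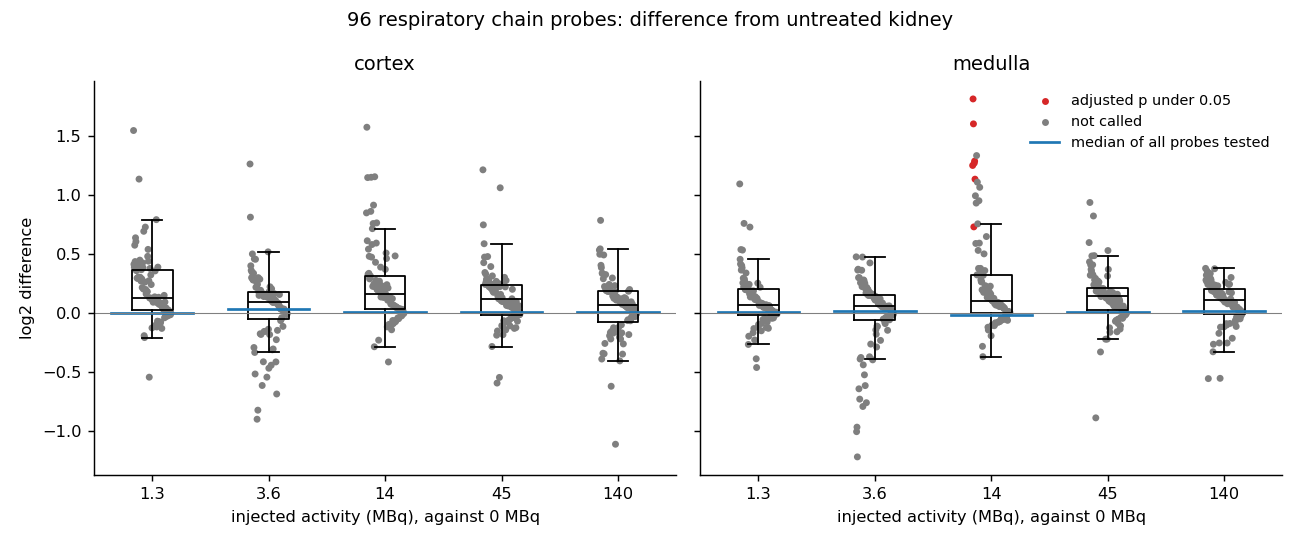
Log2 difference from 0 MBq of the 96 member probes (points) at each activity in cortex and medulla, with boxes for the quartiles, a black line for the members' median and a blue line for the median of all 15420 probes tested. Red points passed an adjusted p of 0.05, which happened in medulla at 14 MBq only, for 7 probes.

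In medulla 7 of 96 member probes rose at 14 MBq and 0 fell. They were Sdhb (the probe of mean 6.87), the ATP synthase subunits Atp5e and Atp5k, the complex IV subunits Cox7a2 and Cox7b, and the complex I accessory subunits Ndufa5 and Ndufb2. The 7 are 7.29% of members, and 4.14% of all probes were called in that comparison, 2.39% as higher and 1.76% as lower. The median difference was 0.11 for members and -0.02 for all probes, and 72 of 96 members and 47.9% of all probes were above 0. Leaving out single arrays moved the members' median between 0.05 and 0.16. At the other activities 0 members were called by limma, where 0.674% of all probes were called at 1.3 MBq, 1.56% at 3.6 MBq, 2.19% at 45 MBq and 1.25% at 140 MBq. Members at an unadjusted p under 0.05 numbered 8, 15, 12 and 12 there, and 21 at 14 MBq. From 1.3 to 140 MBq these are 8.33, 15.6, 21.9, 12.5 and 12.5% of members, where all probes gave 12.7, 18.4, 22, 18 and 12.3%.

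In complex I, Ndufa5 (the probe of mean 10.52) read 10.32, 10.42 and 10.71 on the medulla controls and 11.72, 11.76 and 11.83 at 14 MBq. The difference was 1.29 ± 0.35 (2.44-fold, adjusted p = 0.0474), and the groups did not overlap. Its 3.6 MBq arrays lay below the controls, at 9.34, 8.94 and 10.27 (-0.96 ± 0.35, adjusted p = 0.159). Ndufb2 read 9.32, 9.49 and 9.72 in the controls and 10.57, 10.72 and 10.64 at 14 MBq (1.14 ± 0.31, adjusted p = 0.0488).

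In complex II, the Sdhb probe of mean 6.87 read 5.78, 5.92 and 6.93 on the medulla controls and 8.11, 7.85 and 8.12 at 14 MBq, a rise of 1.82 ± 0.37 (3.52-fold, adjusted p = 0.0172). All treated arrays lay above the highest control, replicate 3. In complex IV, Cox7b rose from 9.78, 9.11 and 9.74 to 10.87, 10.72 and 10.86 (1.27 ± 0.33, 2.41-fold, adjusted p = 0.0395). Cox7a2, the common isoform of subunit 7A, rose from 10.44, 10.62 and 10.82 to 11.41, 11.32 and 11.34 (0.73 ± 0.17, adjusted p = 0.0294). Again no treated array fell within the range of the controls.

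In complex V, Atp5e, the epsilon subunit of the central stalk, rose from 8.97, 8.93 and 9.53 to 10.72, 10.79 and 10.73 (1.60 ± 0.37, 3.04-fold, adjusted p = 0.0261). Atp5k, the membrane subunit e, was not well above background on any medulla control (4.95, 5.19 and 5.15) and was detected on all 3 arrays at 14 MBq (6.54, 6.21 and 6.28). It was at least 1.63-fold higher (adjusted p = 0.0032). These 14 MBq groups were narrow, with an SD between 0.04 and 0.17 for the 7 probes.

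Of the markers of other cells, those of myeloid cells stood apart between the same groups, and those of the proximal tubule overlapped. The mean level of 7 myeloid probes was 2.51, 1.75 and 0.76 on the medulla controls and 0.19, 0.11 and -0.47 at 14 MBq, without overlap. That of 10 proximal tubule probes was -1.07, -0.27 and 0.08 in the controls and -0.11, -0.25 and -0.01 at 14 MBq. Their part in the member differences was not tested.

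The calls depended on single arrays. Atp5k was the 1 member still called without control replicate 1 or 2, or without 14 MBq replicate 1 or 3, and 3 members were called without 14 MBq replicate 2. Without control replicate 3 there were 10 (10.4%), where 7.09% of all probes were called. In the other 5 of these fits the share of all probes called was 0.843 to 2.32%. In a fit of all 36 arrays together 0 of the 96 were called.

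**Figure D3:**
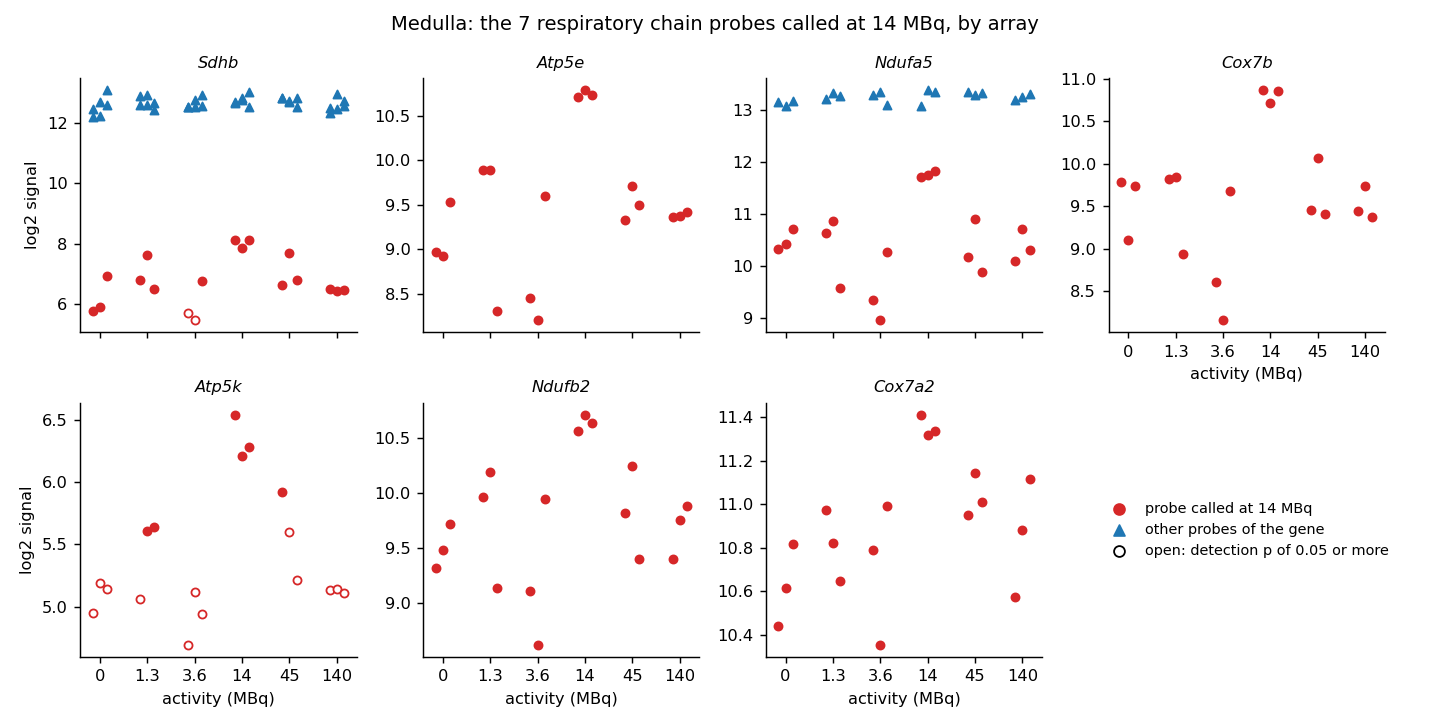
Log2 signal on each medulla array (vertical axes, scaled per panel) against activity in MBq for the 7 genes whose probe was called at 14 MBq (red circles), with the other probes of the same gene as blue triangles. Open symbols have a detection p of 0.05 or more. The red probes are high on the 3 arrays at 14 MBq, while the other probes of Sdhb and Ndufa5 stay between 12.18 and 13.40.

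Other probes of Ndufa5 and Sdhb were not called in that comparison. The second Ndufa5 probe read 13.16, 13.09 and 13.18 on the medulla controls and 13.09, 13.40 and 13.35 at 14 MBq (0.13 ± 0.12, adjusted p = 0.543). The other 2 Sdhb probes differed by 0.35 ± 0.14 (adjusted p = 0.157) and 0.08 ± 0.17 (adjusted p = 0.836). Over the 36 arrays the 2 Ndufa5 probes had a Pearson r of 0.00, and the lowest r between Sdhb probes was 0.44. The difference between probes of a gene was not tested, and the transcripts each probe reads are not given in the sources used here.

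A set of members swung together from array to array. Chosen after the values were seen, it holds the 15 probes, of 15 genes, whose Pearson r with the probe of Atp5a1, the alpha subunit of ATP synthase, was over 0.8 across the 36 arrays. These are 15.6% of members, and 477 probes, 3.09% of all tested, met the same rule. No test is given, since the set was chosen on these values and the arrays share controls, tissues and replicate numbers. From complex I it comprises Ndufb2, Ndufb4, Ndufb5, Ndufb9, Ndufab1 and a probe each of Ndufa5 and Ndufs4. The others are a probe of the assembly factor Ndufaf5, a probe of Sdhb, and Sdhd, Cox6c, Cox7a2, Cox7b, Atp5a1 and Atp5e. Other probes of Ndufa5, Ndufs4, Ndufaf5 and Sdhb did not meet the rule. The second Ndufaf5 probe, detected on 36 arrays (mean 9.22), had an r of -0.54 with Atp5a1 and of -0.50 with the first. In medulla at 14 MBq it differed by -0.14 and the first by 1.07. Just inside the limit lay Cox7a2 (0.81) and just outside it Atp5k (0.77). Complex III had 0 members in it, and its Uqcrb probe had an r of 0.64.

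The set's mean level was high on 6 arrays and low on 5. It was 1.20 on cortex 3.6 MBq replicate 1, 1.03 and 1.02 on cortex 14 MBq replicates 2 and 3, and 0.88, 0.81 and 0.86 on medulla 14 MBq replicates 1 to 3. It was -1.25 and -1.05 on cortex 3.6 MBq replicates 2 and 3, -0.95 and -1.33 on medulla 3.6 MBq replicates 1 and 2, and -0.76 on medulla 1.3 MBq replicate 3. On the other 25 arrays it lay between -0.36 and 0.42. The mean level of the other 81 members lay between -0.23 and 0.12 on all 36 arrays. Single members among the 81 ranged more widely, such as Cox8b over 5.56 log2 units and Uqcrb over 2.84. The split follows from the rule for r, so this contrast is no separate result. The high and low arrays thus share groups: at 3.6 MBq in cortex, replicate 1 was the highest of all arrays and replicates 2 and 3 were among the lowest.

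Atp5a1 itself read 12.56, 12.52 and 12.84 on the cortex controls, 13.93, 11.15 and 11.44 at 3.6 MBq and 12.58, 13.80 and 13.84 at 14 MBq. In medulla it read 12.58, 12.66 and 13.15 at 0 MBq, 11.38, 11.19 and 12.81 at 3.6 MBq and 13.69, 13.75 and 13.81 at 14 MBq. As for array depth, the 6 high arrays had median signals between 164 and 225, and the 5 low ones between 157 and 197. The part of depth and of RNA quality in the swing was not tested.

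**Figure D4:**
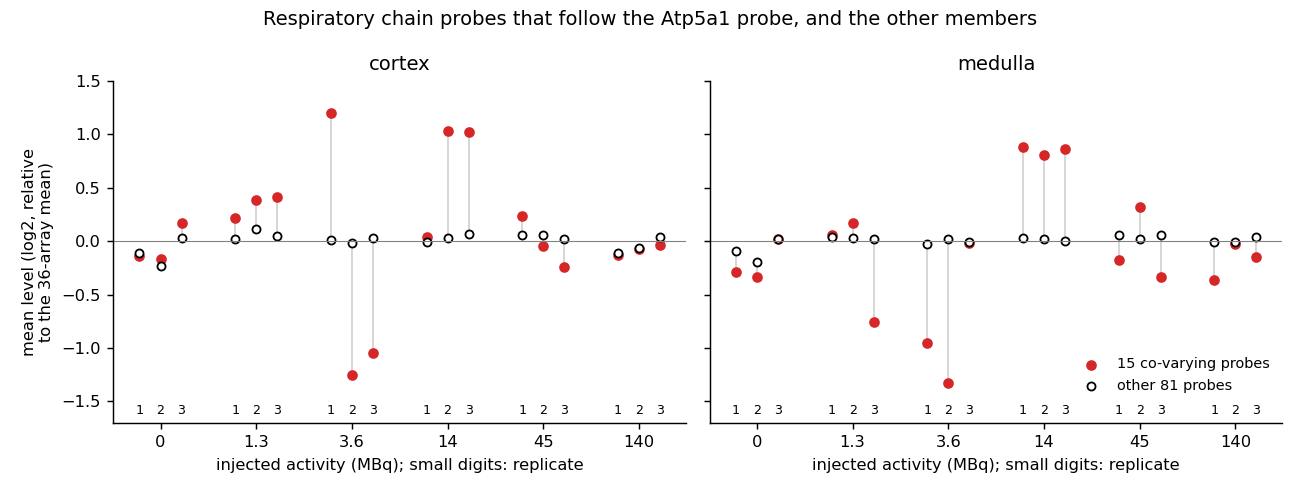
Mean level (log2, relative to the 36-array mean) of the 15 probes that follow the Atp5a1 probe (red) and of the other 81 members (open circles) on each array, by tissue, activity in MBq and replicate number. The red points run from -1.33 to 1.20 and the open ones from -0.23 to 0.12.

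Of the 7 probes called in medulla at 14 MBq, 6 belong to this set, and the remaining one is Atp5k. Of all 368 probes called as higher in that comparison, 82 (22.3%) met the same rule. In medulla at 14 MBq the median difference of the 15 was 1.07 and that of the other 81 was 0.08. In cortex at 14 MBq these medians were 0.72 and 0.12, and at 3.6 MBq -0.41 and 0.14. Without cortex 3.6 MBq replicate 1, 10 members (10.4%) were called in cortex at 3.6 MBq, all of them lower than in the controls, and 3.31% of all probes were called in that fit. Without medulla 3.6 MBq replicate 3, 5 members (5.21%) were called as lower in medulla at 3.6 MBq, and 2.58% of all probes were called.

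The F test for any difference among the 6 activities called 9 members in medulla (9.38% of members) where 4.89% of all probes were called. They were Atp5k (adjusted p = 0.00375), Ndufa5 (0.0219), Sdhb (0.0283), Cox7b (0.0287), Ndufb5 (0.0383), Ndufb4 (0.0388), Ndufb9 (0.0389), Atp5e (0.04) and Atp5a1 (0.0446). All but Atp5k are in the co-varying set. Ndufb4, an accessory subunit, read 9.73, 9.72 and 9.83 at 0 MBq, 8.14, 7.72 and 9.77 at 3.6 MBq and 11.17, 11.03 and 11.09 at 14 MBq. The count fell to 1 without 3.6 MBq replicate 1 or 14 MBq replicate 1 or 3, and to 2 without 3.6 MBq replicate 2 or 14 MBq replicate 2. It was 4 without control replicate 1 or 2 or any single 140 MBq array, 5 without 45 MBq replicate 1, and 15 (15.6%) without 3.6 MBq replicate 3. All probes were called at 7.71% in the last of these fits and at 1.81 to 3.46% in the others. In cortex the F test called 0 members, where 0.532% of all probes were called. At an unadjusted p under 0.05 it gave 2 members (2.08%) and 10.8% of all probes. Without 3.6 MBq replicate 1 it called 11 members (11.5%) and 2.98% of all probes.

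For a trend with activity, each tissue's 15 treated arrays were regressed on the log2 of the activity. The test of this slope called 0 members in cortex, where 0.564% of all probes were called. At an unadjusted p under 0.05 there was 1 member (1.04%), where all probes gave 8.71%. In medulla it also called 0 members, where 0.642% of all probes were called. At an unadjusted p under 0.05 there were 6 members (6.25%), where all probes gave 10.7%. Ndufc2, an accessory subunit of complex I, had the smallest p among the positive slopes of both tissues, with 0.05 ± 0.02 (adjusted p = 0.393) and 0.04 ± 0.02 (adjusted p = 0.323) per doubling of activity. Its treated cortex arrays ran from 12.45, 12.49 and 12.44 at 1.3 MBq to 12.52, 12.78 and 12.97 at 140 MBq, with controls at 12.49, 12.73 and 12.73. Among negative slopes the smallest p belonged to Cox7a1 in cortex (-0.06 ± 0.03, adjusted p = 0.585) and to the core protein Uqcrc2 of complex III in medulla (-0.04 ± 0.02, adjusted p = 0.318).

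Cortex and medulla differed in 11 of 96 members over the 6 activities (11.5%), 4 higher in cortex and 7 higher in medulla, while 26.4% of all probes were called, 12.9% as higher in cortex and 13.5% as higher in medulla. The differences were small. Atp5pb, the peripheral stalk subunit b of ATP synthase, ran from 11.26 through a median of 12.13 to 12.47 on the cortex arrays and from 12.10 through 12.55 to 12.82 on the medulla arrays (-0.40 ± 0.08, adjusted p = 0.000628). Cox7a2l, a relative of subunit 7A, ran from 11.32 through 11.75 to 11.95 in cortex and from 11.74 through 11.99 to 12.39 in medulla (-0.31 ± 0.06, adjusted p = 0.000203). Both ranges overlap between tissues.

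The complex I accessory subunits Ndufc2 (-0.18 ± 0.05) and Ndufb8 (-0.16 ± 0.05) and the complex IV subunit Ndufa4 (-0.14 ± 0.05) were also higher in medulla. Ndufa13 was higher in cortex (0.13 ± 0.04, adjusted p = 0.0123), as was a probe annotated to Ndufs5-ps, a pseudogene of an accessory subunit gene that may share sequence with its parent (0.17 ± 0.06). The remaining 2 calls toward cortex came from probes near background, and no size is given for them. Cox6a2 was detected on 12 of 18 cortex and 7 of 18 medulla arrays, and an Atp5j probe of mean 5.27 on 4 of 18 and 1 of 18. The Atp5j probe of mean 9.61, detected on all arrays, was higher in medulla (-0.23 ± 0.07, adjusted p = 0.0151), and that of mean 13.86 was not called (-0.10 ± 0.05, adjusted p = 0.171). Of 4 Ndufs4 probes, 1 was called (-0.19 ± 0.06, higher in medulla), and the other 3 read 0.17, 0.06 and -0.01.

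The call of Ndufa4 was lost in 22 of 44 alternative settings and that of Ndufs5-ps in 14 of 44. In untreated kidney alone 0 members were called between the tissues, where 0.435% of all probes were called. At an unadjusted p under 0.05 there were 3 members (3.12%), where all probes gave 9.51%. The tissue by activity interaction called 0 of the 96 members and 0% of all probes, with 0 members and 266 of all probes at an unadjusted p under 0.05. Marker lists with medians toward medulla (cortex minus medulla) were the thick ascending limb (-0.74), collecting duct (-0.53), loop and inner medulla (-0.50), endothelium (-0.48) and myeloid cells (-0.76). Of the 7 collecting duct probes, 4 were called higher in medulla and 1, of Scnn1g, higher in cortex. The distal convoluted tubule (0.64) and proximal tubule (0.28) had medians toward cortex, and the remaining lists with probes tested lay between -0.04 and 0.42. The part of these cells in the tissue differences was not tested.

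Complex IV has isoforms known from muscle and brown fat. Cox6a2, the heart and skeletal muscle isoform of subunit 6A, was not well above background on any control array (5.19, 4.95 and 5.73 in cortex). It read 6.92, 6.78 and 6.81 at 1.3 MBq in cortex, at least 2.21-fold higher (adjusted p = 0.0745), and 6.24, 6.76 and 6.67 at 3.6 MBq, at least 1.82-fold higher (adjusted p = 0.143). At 45 MBq it was detected on 2 of 3 arrays (6.60 and 7.27, with the third at 5.65), at least 1.76-fold higher (adjusted p = 0.131), and at 14 and 140 MBq on 2 of 3 arrays each. In medulla it was detected on all 3 arrays at 1.3 MBq (6.45, 6.32 and 5.78, at least 1.45-fold, adjusted p = 0.128), on 0 at 3.6 and 140 MBq and on 2 at 14 and 45 MBq. It was not called in any of these comparisons. It was called at 1.3 MBq in cortex without control replicate 3 (adjusted p = 0.0346) and in the fit of all 36 arrays (adjusted p = 0.0158), which also called it at 3.6 MBq, and at 45 MBq without replicate 3 of that group. Of 7 probes for 6 striated muscle markers, those of Ckm, Acta1, Mylpf, Tnnt3 and Myh4 and 1 of Mb were detected on 0 arrays. The other Mb probe was detected on cortex 3.6 MBq replicate 2 (5.94) and 14 MBq replicate 2 (6.05), where Cox6a2 read 6.76 and 5.59. The part of muscle in the Cox6a2 signal was not tested.

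Cox8b, the heart, muscle and brown fat isoform of subunit 8, had the widest range of all members. In cortex it read 10.97, 7.82 and 9.42 at 0 MBq, 9.39, 12.63 and 8.56 at 1.3 MBq, 9.09, 7.89 and 12.68 at 14 MBq and 11.21, 8.28 and 11.90 at 45 MBq. Within each of these groups the arrays differed by more than 3 log2 units, and the adjusted p was 0.504 or above in all 10 comparisons with 0 MBq. The 5 cortex arrays highest in Cox8b were the 5 highest in the adipocyte hormone Adipoq, and 4 of them were among the 5 highest in Cidea and in Ucp1, markers of brown fat. On cortex 1.3 MBq replicate 2, Ucp1 reached 13.44 and Cidea 12.41. In medulla Cox8b kept to 8.53 to 11.44. The part of fat tissue in the Cox8b signal was not tested beyond these values.

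Cox7a1, the muscle and brown fat isoform of subunit 7A, ranged from 9.79 through a median of 10.68 to 11.47 in cortex and from 9.63 through 10.74 to 11.13 in medulla. Its lowest array in both tissues was control replicate 2. The common isoforms kept within narrower limits: Cox4i1 between 14.13 and 14.71 in cortex and between 14.22 and 14.58 in medulla, and Cox8a between 14.14 and 14.58 and between 14.19 and 14.62. Their signals were also higher than that of Cox7a1, and the part of signal level in the narrower limits was not tested.

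**Figure D5:**
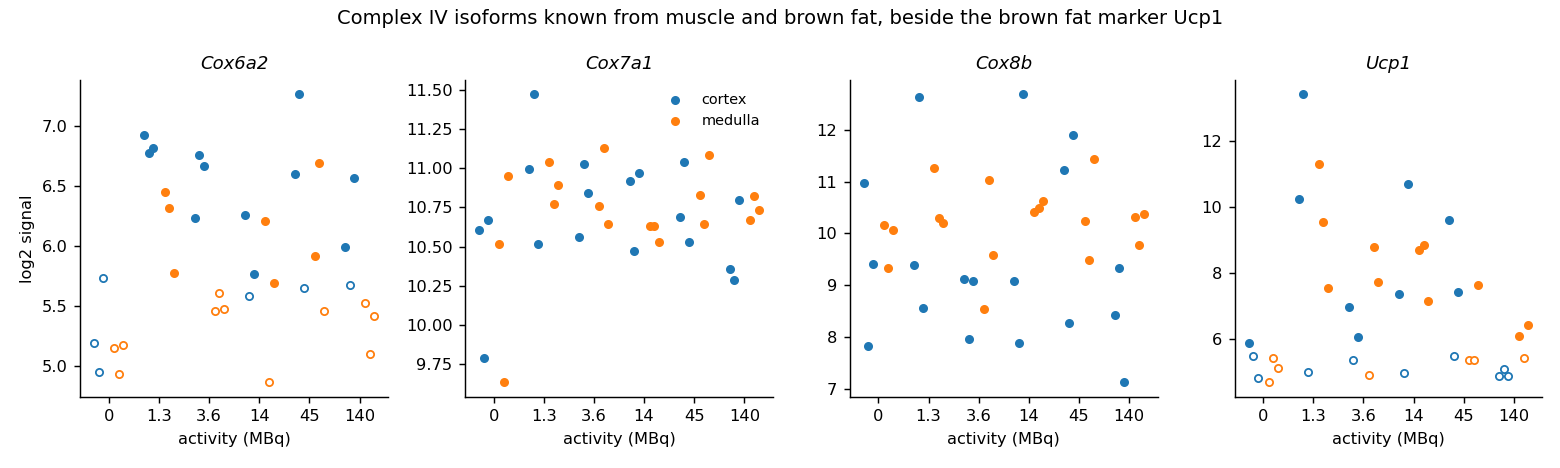
Log2 signal on each array of Cox6a2, Cox7a1 and Cox8b, complex IV isoforms known from muscle and brown fat, and of the brown fat marker Ucp1, against activity in MBq (cortex blue, medulla orange). Each panel has its own scale, and open symbols have a detection p of 0.05 or more. Cox6a2 is open on all 6 control arrays, and the highest Cox8b values, 12.68 and 12.63, are on cortex arrays where Ucp1 reads 10.70 and 13.44.

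Genes around the chain were counted from lists. In medulla at 14 MBq 4.14% of all probes were called, 2.39% as higher and 1.76% as lower. Of all probes, 3.09% followed the Atp5a1 probe with r over 0.8. Of 20 citric acid cycle probes outside the members, 2 rose in medulla at 14 MBq: Suclg1 (2.41 ± 0.36, adjusted p = 0.0032) and Sucla2 (1.37 ± 0.33, adjusted p = 0.0323), subunits of succinyl-CoA ligase. The list's median there was 0.21, and 4 of its 20 probes followed the Atp5a1 probe with r over 0.8. Of 100 mitochondrial ribosome probes, 1 rose at 14 MBq in medulla, Mrpl18 (1.42 ± 0.33, adjusted p = 0.0268), with a list median of 0.02 and 7 of 100 over that r. Of 16 probes for mitochondrial biogenesis 1 fell in the same comparison, Nrf1, which encodes the regulator named above (-0.60 ± 0.13, adjusted p = 0.0176), and the median was 0.19. Of 46 probes for assembly factors outside the symbol rule 0 were called there, and 1 followed the Atp5a1 probe. Of 4 probes for further subunits 0 were called.

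The other comparisons with 0 MBq and the slopes gave few calls in the lists. Of all probes, 1.56% were called in medulla at 3.6 MBq and 2.19% at 45 MBq. In cortex the share was 1.19% at 14 MBq and 0.739% at 140 MBq. The slopes called 0.564% of all probes in cortex and 0.642% in medulla. In medulla at 3.6 MBq the assembly factor Cox15 rose by 0.82 ± 0.16 (adjusted p = 0.0189), the mitochondrial transcription factor Tfb2m by 0.65 ± 0.14 (adjusted p = 0.0269) and Mrpl10 by 0.45 ± 0.10 (adjusted p = 0.0428). At 45 MBq in medulla Dlat, a pyruvate dehydrogenase subunit, rose by 0.63 ± 0.15 (adjusted p = 0.039). In cortex a probe of Mrpl51 was lower at 14 MBq (-0.84 ± 0.18, adjusted p = 0.0369) and another one at 140 MBq (-0.89 ± 0.19, adjusted p = 0.0384). On the treated arrays Mrpl51 also fell with activity in cortex (-0.13 ± 0.03 per doubling, adjusted p = 0.0214), and Mrpl57 in medulla (-0.14 ± 0.03, adjusted p = 0.0235).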

How the data were processed

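Probe intensity values on a linear scale, deposited for 36 Illumina arrays and not normalised between them per the file headers, came with a deposited detection p-value beside each. The authors' normalised intensities, a second deposited table whose method no source used here names, served as an alternative. Per the labels' protocols, total RNA was extracted from frozen tissue and labelled with biotin. Groups follow the sample titles.

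Signals were background-corrected and quantile-normalised to log2 with neqc (offset 16, background inferred from the detection p-values, limma version 3.58.1, R version 4.3.3) and plotted with matplotlib 3.10.9 in Python 3.11.15. Probes with a detection p under 0.05 on at least 3 arrays were kept. Probe symbols came from the platform annotation, and 0 member symbols were replaced through RefSeq. Each tissue was fitted with limma (lmFit, eBayes) on its 18 arrays, with 12 residual degrees of freedom. Differences between tissues and the interaction were fitted on all 36 arrays. The Benjamini-Hochberg adjustment ran over all 15420 probes of a comparison, and errors after ± are limma's standard errors. Where a group was undetected on every array, a bound from the lowest detected signal replaces the fold.

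The members, lists and comparisons were chosen with earlier results of these data known. Members are named where called in a comparison (up to 6 each way), where they have the smallest p-values of a comparison with few calls or of a slope, as the strongest signal of a complex, or as tissue isoforms and Sdh genes. Same-numbered cortex and medulla arrays at 0 MBq deviated together (r between 0.577 and 0.634 over all probes), which comes from the values and not from the labels; over all 18 pairs r ran from -0.323 to 0.634, with 14 above 0.1. Within a tissue 0 of 10 comparisons had every pair above 0.1. The procedure was tested on simulated data. The number of arrays limits the precision.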

Additional observations from a re-analysis of the deposited data

Results flagged for a closer look

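In 2 cases every array at an activity lay above the mean of its tissue's controls in cortex or medulla and every array of the other tissue lay below. At 3.6 MBq the Ndufb11 probe of mean 5.56 changed by 0.81 in cortex and by -0.26 in medulla, a difference of 1.07 between fitted values. It was detected on 2 of 3 cortex arrays and 0 of 3 medulla arrays at that activity and on 1 of 3 controls in each tissue, and the second Ndufb11 probe differed by 0.04 in cortex and -0.04 in medulla. At 140 MBq Atp5k changed by -0.26 in cortex and by 0.04 in medulla, a difference of -0.29 between fitted values, and it was detected on 0 of these 6 arrays and on 1 of the 6 controls. Both cases rest on groups that were not well above background, so neither value measures a change in expression. These differences at a single activity were not tested, and the interaction over all activities had an adjusted p of 1.00 for both probes. They come from 28 probes and complex levels examined at 5 activities.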

How the results depend on the processing

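Leaving out single arrays moved the number of called members from 0 to between 0 and 2 in cortex at 1.3 MBq, between 0 and 10 at 3.6 MBq, between 0 and 1 at 45 MBq and between 0 and 11 in the cortex F test. In medulla the number was between 0 and 5 at 3.6 MBq, 1 and 10 at 14 MBq, 0 and 3 at 45 MBq and 1 and 15 in the F test, and at 0 MBq between the tissues 0 and 2. In the fits whose share of all probes called is given above, that share moved too. The counts alone do not set the members apart. The member median in medulla ran from 0.03 to 0.14 at 1.3 MBq, 0.01 to 0.13 at 3.6 MBq, 0.05 to 0.16 at 14 MBq, 0.063 to 0.20 at 45 MBq and 0.06 to 0.16 at 140 MBq, and between the tissues at 0 MBq from -0.05 to 0.09. The difference between tissues of 1 Ndufs4 probe, -0.01, ran from -0.038 to 0.016 and changed sign without 6 single arrays (0.01, 0.0038, 0.0081, 0.0023, 0.0013 and 0.016).

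With the replicate number as a block, 4 members were called in medulla at 14 MBq, 1 at 45 MBq and 3 in the F test, and 13 between the tissues; the block changed no other count, and 0 were called at 0 MBq. In a fit of all 36 arrays the counts were 1, 1, 1 and 2 in cortex at 1.3, 3.6, 14 and 140 MBq, 1 in the cortex F test, and 0 in medulla at 14 MBq and 0 in its F test. The deposited normalisation gave 2 in medulla at 45 MBq and 1 at 140 MBq, and no background correction 2 at 45 MBq. Medulla at 14 MBq gave 4 without a detection filter (and 4 in the F test), 4 with 1 probe per gene and 1 at an adjusted p under 0.01 with a 1.5-fold change, which left 0 between the tissues. The cause of these changes was not tested. The share of all probes called under these alternatives is not given here, so the counts alone do not set the members apart. Of the values that summarise a comparison, 218 stayed within a limit of size under these alternatives and 18 moved. A count stayed if it was equal, or within 1.5-fold where neither count was 0. A member median stayed if it shifted by less than the within-group SD of the members' mean level. The sign of a median was not part of this rule. Members near background, such as Sdhc (1 probe), Uqcrfs1 and Cox6a2, are limited by signal.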

Other observations

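Lists of related genes also held probes that differed between the tissues. Of 100 mitochondrial ribosome probes, 13 were higher in cortex and 5 higher in medulla over the 6 activities, where 26.4% of all probes were called. Mrps6, of the small ribosomal subunit, stood lowest in cortex (-0.89 ± 0.09, adjusted p = 1.66e-08), and Mrps35 was higher there (0.31 ± 0.05, adjusted p = 7.61e-05). Of 46 assembly factor probes, 9 were higher in cortex and 4 in medulla. Atpaf2, an assembly factor of ATP synthase, was higher in cortex (0.53 ± 0.09, adjusted p = 3.09e-05), and both called probes of Acad9, an assembly factor of complex I, were higher in medulla (-0.48 ± 0.08 and -0.38 ± 0.10). The 2 called probes of Lrpprc, which stabilises mitochondrial messenger RNA, went opposite ways (-0.49 ± 0.11 and 0.25 ± 0.07).

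Of 20 citric acid cycle probes 3 were higher in cortex and 0 in medulla: Ogdh (0.38 ± 0.10), Suclg2 (0.31 ± 0.09) and Mdh2 (0.24 ± 0.07). Cycs, the electron carrier cytochrome c, was higher in cortex (0.56 ± 0.21, adjusted p = 0.0469). Of 16 biogenesis probes, Polg was higher in cortex (0.24 ± 0.08) and Ssbp1 in medulla (-0.25 ± 0.09).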
